A study of Homo sapiens with 3 samples.

Results

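The transcripts of translation initiation and elongation factors were examined in the human embryonic stem cell line khES3 after 5 hours without leucine or without lysine. The cells were undifferentiated and had been grown in stem cell medium. They then spent 5 hours in complete medium, in leucine-deprived medium or in lysine-deprived medium. Each of the 3 conditions was read on 1 Affymetrix array, so a difference between conditions can be set against no replicate and carries no p-value. In such bulk samples fewer cells that make a transcript and less of it per cell cannot be told apart. The factors were chosen by name: every probe set that names exactly 1 gene whose symbol begins with EIF1 to EIF6 or with EEF1 or EEF2, without the eIF2 alpha kinases, EIF2S1, the 4E-binding proteins, the eEF1A methyltransferases, EEF1E1 and pseudogenes. The rule used no measured value. It found 127 probe sets and 50 genes, of 54613 probe sets and 19775 singly named genes on the arrays. A further 13 probe sets name a factor together with another gene and were left out, so some factors are not analysed here.

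Initiation factors bring the small ribosomal subunit to the 5′ end of an mRNA and to its start codon. eIF2 carries the initiator tRNA, and eIF2B recharges eIF2 with GTP after each round. When amino acids run short the kinase GCN2 phosphorylates eIF2 alpha, which blocks eIF2B and lowers initiation. eIF4E binds the cap, eIF4G and eIF4A build the scaffold and unwind the leader, and eIF3 holds the parts together. In elongation eEF1A delivers charged tRNAs, eEF2 moves the ribosome and eIF5A helps at slow peptide bonds. Many elongation factor mRNAs, and those of some initiation factors, begin with a C and a run of pyrimidines, the 5′ terminal oligopyrimidine (TOP) tract. Through this tract mTORC1, the kinase complex that senses amino acids, controls their translation.

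The starts of 8 factor genes are shown because the TOP members are described apart from the others below. Each line gives 20 bases before the annotated start in lower case and the first 10 transcribed bases in capitals, 5′ to 3′ on the strand of the gene, from RefSeq on GRCh38.p14. The first 4 genes are in a list of 9 known TOP factors and the other 4 are not.
EEF1A1 (chr6:73521023-73521052, minus strand): cagtagtcgccgtgaacgttCTTTTTCGCA
EEF2 (chr19:3985454-3985483, minus strand): tgagtgttgacgtcagcgttCTCTTCCGCC
EIF4B (chr12:53006436-53006465, plus strand): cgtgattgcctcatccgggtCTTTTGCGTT
EIF3F (chr11:7987317-7987346, plus strand): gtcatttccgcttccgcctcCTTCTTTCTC
EIF1 (chr17:41688865-41688894, plus strand): aacacaggcaccgcccctctGCCCCAGTCA
EIF1B (chr3:40309687-40309716, plus strand): ctccatcggccattttgtgcGAGAAGCCGC
EIF2B1 (chr12:123633677-123633706, minus strand): cggaagaggggtacggaagtGCGCCGGAAG
EIF4A3 (chr17:80147119-80147148, minus strand): cgtctgttctcggcagcggcACAGCGAGGT
The 4 TOP genes start with C and go on with pyrimidines, for at least 5 bases. EIF1, EIF1B and EIF2B1 start with G and EIF4A3 with A.

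The values are linear MAS5 signals, which the authors had scaled to a common mean on each array. Values under the 40th percentile of an array were raised to it (54.6 in complete medium, 56.7 without leucine, 62.4 without lysine), and log2 was taken. A gene was read by its brightest probe set among those whose mean reached the median of all probe sets. Of the 50 factor genes 47 had such a probe set, against 12961 genes in all. Of the other 3, EIF4A2 and the antisense transcript EIF1B-AS1 had only dimmer probe sets and EIF1AY, a Y-linked gene, is not described. Most factors lay high on the arrays, at a median level percentile of 93.2 among measured genes, and only EEF1A2, EEF2KMT, EIF3C, EIF5A2 and the neighbouring transcript EIF3J-DT lay below the median level. Differences are in log2 signal, where 0.58 is 1.5-fold and 1 is 2-fold. Without replicates, error could be read only from how far probe sets of 1 gene disagree. Over the 28 factor genes with several kept probe sets its SD was 0.37 for either deprivation over complete medium and 0.39 between the deprivations. Variation from culture to culture is not in this figure.

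Stem cell markers were present on the arrays as the labels say. All 12 measured stem cell markers, NANOG and SOX2 among them, were above the floor on every array, with summed signals of 237666 to 251617. Of 9 fibroblast and feeder cell markers 5 were above the floor throughout (summed signals 26375 to 30116), and of 11 germ layer markers 4 were (830 to 1119), with CDX2 and MIXL1 at the floor on all 3 arrays. The 3′ to 5′ signal ratio of ACTB, a measure of RNA integrity and labelling, was 5.44 in complete medium, 7.55 without leucine and 11.2 without lysine. For GAPDH it was 1.08, 1.23 and 1.25. The part of RNA quality in the differences below was not tested.

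As a class the factor transcripts stood near the middle of the transcriptome after both deprivations. After leucine removal the 47 genes had a median difference of -0.02 from complete medium (quartiles -0.22 and 0.14), beside 0.01 for all genes, with 21 above 0 and 26 below. After lysine removal the median was -0.02 (quartiles -0.29 and 0.18), beside 0.00 for all genes, with 23 above 0 and 24 below. When each array was centred on its own median, the median of all genes moved to -0.12 after leucine and -0.24 after lysine removal, and that of the factors to -0.15 and -0.27.

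By their brightest probe sets few factors passed 1.5-fold. After leucine removal 2 of 47 did (4.26%), EEF1A2 and EIF5A2, where 18.7% of all genes passed. After lysine removal 4 did (8.51%), EEF1A2, EIF3C, EIF1B and EIF5A, where 25.6% of all genes passed. Among the 42 factors at or above the median level none passed after leucine removal, beside 5.37% of all genes that bright, and 2 passed after lysine removal, beside 11.4%. At 2-fold only EEF1A2 passed in either comparison, beside 6.39% of all genes after leucine and 9.46% after lysine removal. Of the brighter genes 0.879% and 1.82% passed 2-fold, and of the brighter factors none. The counts depend on the probe sets and the scaling. With probe sets averaged per gene 5 factors passed 1.5-fold after leucine removal (10.6%), beside 18.0% of all genes. Without shared or cross-hybridising probe sets 6 of 37 factors did (16.2%), beside 21.2%, and 6 did after lysine removal, beside 28.0%. With the arrays centred on their medians 4 passed it after leucine removal (8.51%, beside 18.8%) and 12 after lysine removal (25.5%, beside 30.6%).

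**Figure D1:**
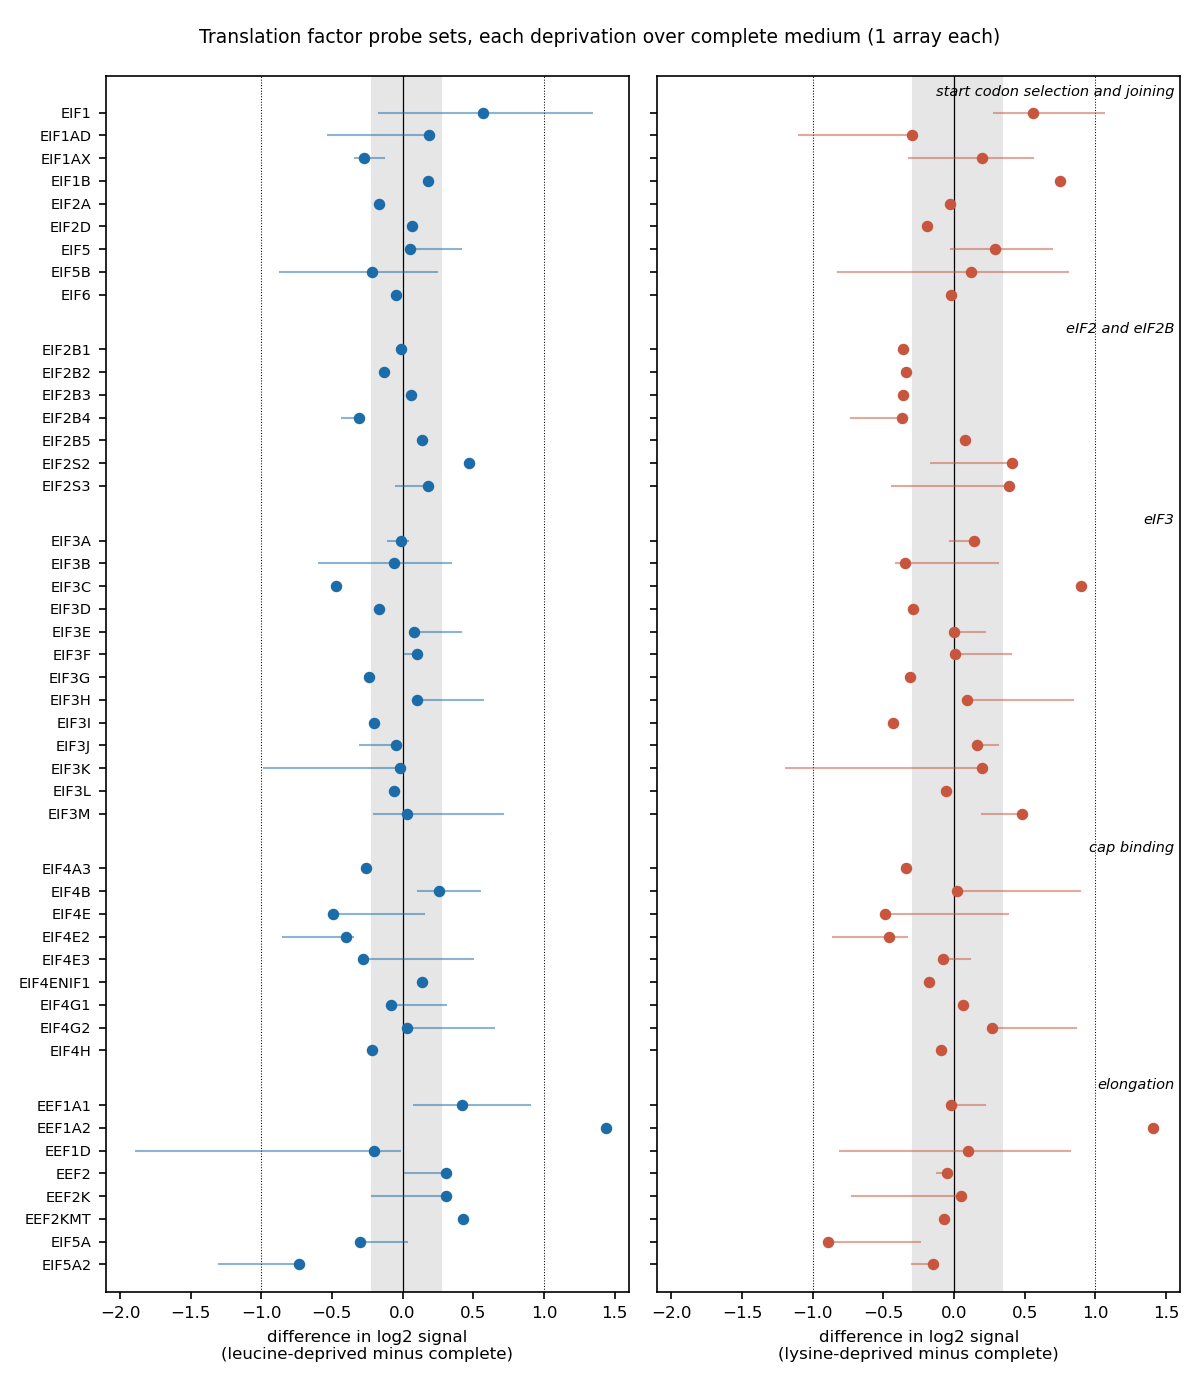
Difference in log2 signal for each of the 46 protein-coding factors, leucine-deprived (left, blue) and lysine-deprived (right, red) over complete medium, 1 array each. Points are the brightest probe set, lines span all kept probe sets of the gene, the grey band holds the middle 50% of all genes, and dotted lines mark 2-fold; only EEF1A2 lies beyond 2-fold by its brightest probe set.

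Of the start codon factors EIF1 stood highest after leucine removal, and EIF1 and its paralogue EIF1B after lysine removal. EIF1 encodes the small factor that keeps the scanning ribosome open until it meets a start codon in good context. Its brightest probe set read 43270 in complete medium, 64290 without leucine and 63721 without lysine. Both deprived arrays were thus higher by 0.57 and 0.56, just short of 1.5-fold. The next 3 probe sets of EIF1 read 14428, 13580 and 14243 in complete medium, 28152, 28616 and 27392 without leucine, and 30125, 26634 and 25927 without lysine. They were higher by 0.94 to 1.08 after leucine and by 0.86 to 1.06 after lysine removal, close to 2-fold. Over all 6 kept probe sets of EIF1 the range was -0.17 to 1.34 after leucine and 0.28 to 1.06 after lysine removal, with 5 and 6 of them above 0. Of these probe sets 5 are marked by the manufacturer as shared or cross-hybridising. The only one that is not read 266 in complete medium, 673 without leucine and 441 without lysine.

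EIF1B, a close paralogue of EIF1, read 13632 in complete medium, 15420 without leucine and 22966 without lysine. It was higher by 0.18 after leucine and by 0.75 after lysine removal, on 1 kept probe set. EIF5, which triggers GTP hydrolysis on eIF2 at the start codon, read 18252, 18924 and 22292 in the same order. Its 5 probe sets lay between 0.05 and 0.41 after leucine removal, all above 0, and between -0.02 and 0.69 after lysine removal. EIF1AX, a partner of EIF1 in scanning, read 16864, 13990 and 19433. All 4 of its probe sets were lower after leucine removal (-0.13 to -0.34), and they ran from -0.32 to 0.56 after lysine removal. EIF6, which keeps the ribosomal subunits apart, read 6536, 6299 and 6458, and so differed by -0.05 and -0.02. EIF5B, which joins the subunits, gave -0.22 and 0.12 by its brightest probe set, but its 6 probe sets ran from -0.87 to 0.24 and from -0.82 to 0.81. EIF2A (-0.17 and -0.03) and EIF2D (0.07 and -0.19), which can bring initiator tRNA without eIF2, lay near the middle of all genes. EIF1AD, named for a domain it shares with eIF1A, was at 0.19 and -0.30, while its other probe set gave -0.53 and -1.10. Their mean, -0.17 and -0.70, turned the direction after leucine removal. The median of the 9 genes was 0.05 after leucine and 0.12 after lysine removal; centring the arrays on their medians turned both below 0, to -0.08 and -0.13, while all genes moved to -0.12 and -0.24.

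After lysine removal the brightest probe sets of both measured eIF2 subunits were above complete medium, and those of 4 of 5 eIF2B subunits below it; the dimmer eIF2 probe sets did not share that side. EIF2S2, the beta subunit of eIF2, read 20502 in complete medium, 28397 without leucine and 27170 without lysine. It was higher by 0.47 and 0.41 by this probe set; its dimmer one gave 0.50 and -0.16. EIF2S3, the gamma subunit, read 11135, 12619 and 14596, with differences of 0.18 and 0.39. Its 3 probe sets ran from -0.05 to 0.18 after leucine and from -0.44 to 0.39 after lysine removal, where only the brightest was above 0.

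In eIF2B, 4 of 5 subunit genes were lower after lysine removal by nearly the same amount: EIF2B1 by -0.36, EIF2B2 by -0.34, EIF2B3 by -0.36 and EIF2B4 by -0.37. EIF2B1 read 2206 in complete medium, 2184 without leucine and 1725 without lysine. EIF2B4 read 2506, 2019 and 1944, and its other probe set 2401, 1778 and 1450. EIF2B5, the catalytic subunit, went the other way and read 879, 965 and 927. The 5 genes had a median of -0.36 after lysine removal, and it was -0.60 with the arrays centred on their medians and -0.34 after quantile normalization. EIF2B5 lay above 0 (0.08) as deposited and below 0 with median centring, where all 5 were below. After leucine removal the 5 ran from -0.31 to 0.14 with a median of -0.01. By the brightest probe sets these differences do not exceed the SD of 0.37 between probe sets of a gene.

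The eIF3 complex had the smallest spread of the 5 role groups after leucine removal (SD 0.16 over genes). Its 13 measured subunits had a median difference of -0.05, and 12 of them lay within the range of -0.24 to 0.10. EIF3A, the largest scaffold subunit, read 10976 in complete medium, 10872 without leucine and 12121 without lysine. EIF3E read 47345, 49963 and 47473, which are differences of 0.08 and 0.00. EIF3L (40852, 39079 and 39091) was as level, at -0.06 on both deprived arrays. After lysine removal the median was 0.01, but the subunits spread more widely. EIF3M was higher by 0.48 (17900 in complete medium, 18292 without leucine, 24940 without lysine), with all 4 of its probe sets above 0 after lysine removal (0.20 to 0.48). EIF3I read 8559, 7439 and 6332 and was lower by -0.43 after lysine removal, and EIF3B (-0.35), EIF3G (-0.31) and EIF3D (-0.29) lay on the same side. Of the 5 probe sets of EIF3B 4 were below 0 there, and after leucine removal they ran from -0.59 to 0.34. With median centring the eIF3 medians were -0.18 and -0.24, beside -0.12 and -0.24 for all genes. EIF3C stood outside this range, but its only singly named probe set was dim (90.6, 65.4 and 169), with differences of -0.47 and 0.90. At level percentile 7.30 it is the dimmest measured factor.

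Among the cap-binding factors, EIF4E2 was lower on both deprived arrays in every probe set. It encodes 4EHP, a cap-binding protein that represses translation. Its brightest probe set read 4004 in complete medium, 3035 without leucine and 2914 without lysine. The next read 3206, 1781 and 1885, and the third 907, 507 and 501. The 4 probe sets lay between -0.85 and -0.35 after leucine and between -0.86 and -0.33 after lysine removal. Of the 16 factors with at least 3 kept probe sets, EIF4E2 was the only one with all of them lower on both arrays. How many of all genes share this was not counted. EIF4E, the cap-binding protein of general initiation, read 3833, 2734 and 2736 by its brightest probe set, -0.49 on both. Its other probe sets disagreed, with 0.15 and -0.11 after leucine and 0.38 and 0.15 after lysine removal, so EIF4E has no settled direction here.

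The scaffold gene EIF4G1 read 2966 in complete medium, 2812 without leucine and 3101 without lysine (-0.08 and 0.06), and its other probe set gave 0.31 and 0.05. EIF4G2, a related scaffold used in cap-independent initiation, read 30252, 30967 and 36438 (0.03 and 0.27). EIF4A3, the helicase of the exon junction complex, read 9260, 7741 and 7330 (-0.26 and -0.34). EIF4B, which assists the helicase, read 6468, 7722 and 6568 (0.26 and 0.02), and all 3 of its probe sets were above 0 on both deprived arrays. EIF4H, of like function, was at -0.22 and -0.09 and EIF4ENIF1, the 4E transporter, at 0.14 and -0.18 (939, 1037 and 828). EIF4E3, a further cap-binding protein, was at -0.28 and -0.08 by its brightest probe set, but its other 2 gave 0.50 and 0.48 after leucine removal, and their mean with the first, 0.23, turned the direction. The cap-binding group takes in all 9 measured EIF4 genes, not all of which encode proteins that bind the cap. It had a median of -0.22 after leucine removal, which the mean over a gene's probe sets turned to 0.12. After lysine removal the median was -0.09, and 0.01 by that mean.

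**Figure D2:**
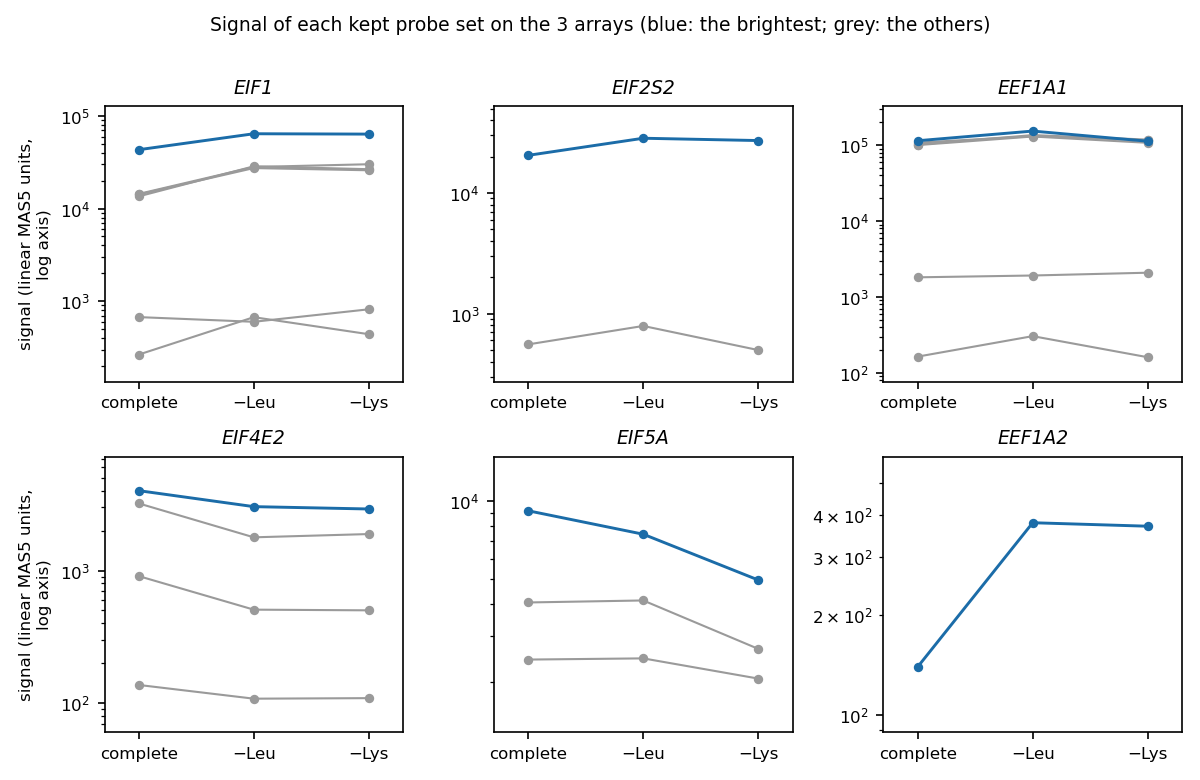
Linear MAS5 signal on a log axis for each kept probe set of 6 factors in complete medium, without leucine and without lysine, 1 array each; the blue line is the brightest probe set and grey lines are the others. EIF1 is higher on both deprived arrays in its 4 brightest probe sets, EIF4E2 is lower in all 4, EIF5A is lowest without lysine in all 3, and EEF1A1 is highest without leucine in its 4 brightest.

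Among the elongation factors EEF1A1 and EEF2 read higher without leucine than without lysine by their brightest probe sets, while EEF1D (-0.30, leucine minus lysine) and EIF5A2 (-0.58) read lower. EEF1A1, which encodes the main carrier of charged tRNA, read 114491 in complete medium, 153448 without leucine and 112816 without lysine. It was higher by 0.42 after leucine removal and at -0.02 after lysine removal. All 6 of its probe sets were above 0 after leucine removal (0.08 to 0.90), and after lysine removal they ran from -0.03 to 0.22. The 4 brightest are marked as cross-hybridising, and EEF1A1 has many near-identical copies in the genome that these probe sets may not tell apart. By the brightest unmarked probe set EEF1A1 was at 0.08 after leucine and 0.20 after lysine removal, so that the order of the deprivations turned. With quantile normalization its difference after leucine removal was 0.21. EEF2, the translocase, read 48962, 60585 and 47381, higher by 0.31 after leucine removal and at -0.05 after lysine removal; its other probe set gave 0.02 and -0.12. EEF2K, the kinase that inhibits eEF2, read 1210, 1498 and 1249 (0.31 and 0.05), with its other probe set at -0.22 and -0.72. EEF2KMT, a methyltransferase of eEF2, read 268, 360 and 256 (0.43 and -0.07). EEF1D, a subunit of the exchange factor of eEF1A, read 16237, 14165 and 17448 (-0.20 and 0.10). Its second probe set, nearly as bright, read 14636, 14415 and 14044 (-0.02 and -0.06) and gave 0.04 for leucine minus lysine. The dim ones gave -1.59 and -1.09 for leucine minus lysine.

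EEF1A2 was the only factor past 2-fold over complete medium when each gene was read by its brightest probe set. It encodes the form of eEF1A that is typical of muscle and neurons. Its single probe set read 140 in complete medium, 379 without leucine and 370 without lysine, which is 2.71-fold and 2.65-fold higher. These signals are above the floor but at level percentile 30.4 among measured genes, and no other probe set of the gene is on the arrays. The difference ran from 1.26 to 1.44 after leucine and from 1.16 to 1.41 after lysine removal over the 9 alternative settings.

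EIF5A and EIF5A2, the paralogues that carry the modified lysine hypusine, had different profiles. EIF5A read 9192 in complete medium, 7460 without leucine and 4963 without lysine. It was 1.85-fold lower after lysine removal (-0.89), and its other probe sets gave -0.60 and -0.24 there. After leucine removal the 3 probe sets were at -0.30, 0.03 and 0.02. All 3 are marked as shared or cross-hybridising. EIF5A2 read 209, 126 and 189, and so lay at -0.73 after leucine and -0.15 after lysine removal. Its second kept probe set read 140, 35.9 and 114, the value without leucine being under the floor. DHPS (-0.07 and 0.03) and DOHH (-0.25 and 0.32), the enzymes that make hypusine, lay inside 1.5-fold. The 8 genes grouped under elongation include EEF2K (0.31 after leucine removal) and EEF2KMT (0.43), whose products act on eEF2. Their median was 0.31 after leucine removal and -0.03 after lysine removal. After leucine removal it was 0.18 with median centring and 0.22 after quantile normalization. With probe sets averaged per gene it was 0.10, and without marked probe sets 0.19. Between the deprivations it was 0.31, and -0.05 over the 4 genes left without marked probe sets.

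By their brightest probe sets and the deposited scaling the TOP factors were mostly higher after leucine removal and close to complete medium after lysine removal. Of the 9 listed, 7 were measured: EEF1A1, EEF2, EIF4B, EIF3F, EIF3E, EIF3H and EEF1D. Their median was 0.10 after leucine removal, with 6 of 7 above 0 and EEF1D (-0.20) below. The other 39 protein-coding factors had a median of -0.05, with 15 above 0. After lysine removal the TOP factors had a median of 0.01 and lay between -0.05 and 0.10, while the others ran from -0.89 to 1.41 around -0.06. With median centring the TOP median after leucine removal was -0.03, with 3 of 7 above 0, beside -0.12 for all genes and -0.18 for the other factors. After lysine removal that scaling put it at -0.24, with 0 of 7 above 0, beside -0.24 for all genes and -0.31 for the other factors. Quantile normalization put it at 0.12 after leucine removal. With probe sets averaged per gene it was 0.24, beside 0.11 after lysine removal, and without marked probe sets 0.10 and 0.20 over 5 genes, so the order of the deprivations depends on the probe sets read. Within eIF3 the 3 TOP subunits were at 0.08 to 0.10 after leucine removal, and 9 of the 10 others lay below 0. This split by sign depends on the scaling, since with median centring 0 of the 13 eIF3 genes were above 0 and after quantile normalization 6 were.

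**Figure D3:**
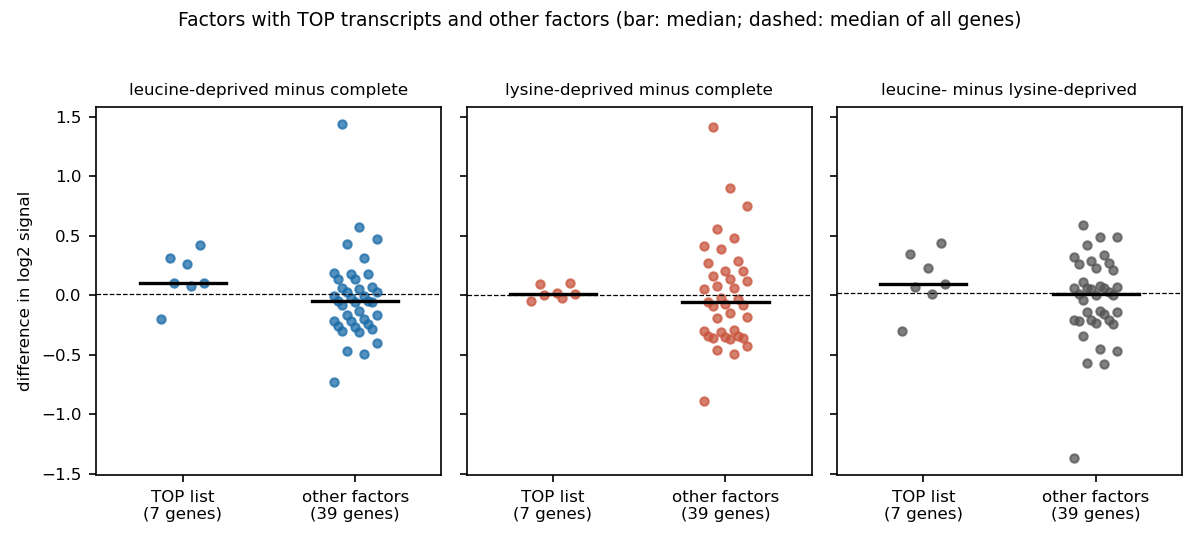
Difference in log2 signal of 7 factors with TOP transcripts and of 39 other protein-coding factors, for leucine-deprived over complete (left), lysine-deprived over complete (middle) and leucine- over lysine-deprived medium (right), 1 array each. Points are genes, bars are medians and dashed lines the median of all genes; on the left the TOP bar is at 0.10 and the other bar at -0.05.

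The starts in RefSeq gave a second way to mark such transcripts, which overlaps with the list. A start was taken as TOP-like where its first base is C and the next 4 are pyrimidines. Of 37 protein-coding factors with a start in the table, 10 had such a start (27.0%): EEF1A1, EEF2, EIF2A, EIF2D, EIF2S3, EIF3D, EIF3F, EIF3K, EIF3M and EIF4B. Of 10510 measured genes with a start 748 did (7.12%), and of all 35116 starts 4.07%. The 10 factors had a median difference of 0.08 after leucine removal, with 7 above 0, and the other 27 a median of -0.08, with 9 above 0. Of the 10, EEF1A1 (0.42), EEF2 (0.31), EIF4B (0.26) and EIF3F (0.10) are also in the list. Outside the list EIF2S3 (0.18), EIF2D (0.07) and EIF3M (0.03) were above 0. EIF3K (-0.02), EIF2A (-0.17) and EIF3D (-0.17) were below it. The listed EIF3E, EIF3H and EEF1D have no start in the table. Among measured genes at or above the median level the same medians were 0.05 over 438 TOP-like genes and -0.01 over 5035 others. After lysine removal they were 0.00 and -0.09 for the factors, and 0.00 and -0.03 for the brighter genes. The letters TGATGNAAN of the C/EBP-ATF response element, through which ATF4 acts, were also searched on both strands of the 300 bases around each start (250 before, 50 after). They were in 3.61% of all starts and in 1 of the 53 factor starts, a start of EIF4E3. A match is a run of letters and not a shown binding site.

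Between the deprived arrays 3 of 47 factors differed by 1.5-fold (6.38%), beside 21.3% of all genes. These were EIF3C (-1.37, leucine minus lysine), EIF3J-DT (-0.91) and EIF5A (0.59). Only EIF3C passed 2-fold, beside 8.43% of all genes. Of the 42 factors at or above the median level 1, EIF5A, passed 1.5-fold, beside 5.22% of all genes at or above it. None passed 2-fold, beside 0.37%. Here too the factors were mostly brighter than the genes they are set beside. All 3 probe sets of EIF5A were higher without leucine than without lysine (0.26 to 0.62), and all 4 of EIF1AX were lower (-0.01 to -0.69). The 5 eIF2B genes were all on the higher side without leucine (0.05 to 0.42), EEF1A1 was at 0.44 and EEF2 at 0.35, whereas EIF1B was at -0.57 and EIF3M at -0.45. The values of this comparison come from the same deprived arrays as the others and add no independent measurement. EIF1 differed by 0.01 and EEF1A2 by 0.03 between the deprivations.

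Other genes of the translation apparatus were listed for reference, in 6 lists of 44 genes, of which 40 were measured. Their median was -0.08 after leucine and 0.00 after lysine removal. After leucine removal 2 of them passed 1.5-fold (5.00%), beside 18.7% of all genes. After lysine removal 7 did (17.5%), beside 25.6% of all genes. The same 2 genes passed in both. PABPC1L, a poly(A)-binding protein of germ cells and embryos, read 691 in complete medium, 1272 without leucine and 1339 without lysine (0.88 and 0.96). EEF1AKMT3, a methyltransferase of eEF1A, was under the floor in complete medium, so that its differences of 1.66 and 1.37 are lower bounds. LARP1, which binds TOP mRNAs when mTORC1 is inactive, read 15888, 20676 and 24432 (0.38 and 0.62). PABPC1, itself a TOP transcript, read 73156, 90657 and 68727 (0.31 and -0.09). These differences were close in size to those of the brightest EEF2 probe set, while the other EEF2 probe set gave 0.02 and -0.12. PABPC3, a further gene of the poly(A)-binding list, read 54311, 53810 and 61299 (-0.01 and 0.17). LARP1 (0.62), the release factor gene GSPT2 (-0.70), the diphthamide gene DPH7 (-0.98) and the methyltransferase gene EEF1AKMT1 (-1.13) were past 1.5-fold after lysine removal only. So was EEFSEC (0.68), the selenocysteine elongation factor. The contrast of these genes with the leucine array was not tested. The 10 mitochondrial factors had medians of 0.04 and 0.06, and none passed 1.5-fold on either array.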

How the data were processed

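Per the labels' protocols, 100 ng of total RNA was labelled from the 3′ end for each of the 3 arrays, 1 per condition. The authors deposited an intensity for every probe set, linear in scale; the submitters' processing notes name MAS5 for this step, and its version is not given in the sources used here. The mean after trimming 2% at either end was 500.1 on each array, so a shift of all mRNA would not show. Of 54613 probe sets without controls, 41091 name 1 gene, 1801 several and 11721 none here. All 50 factor symbols matched RefSeq (GRCh38.p14) by Entrez identifier.

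Signals were floored, taken to log2 and filtered as described above; a fold with 1 array at the floor is a bound. Python 3.11.15, numpy 2.4.6, pandas 2.3.3 and scipy 1.17.1 were used, and the calculation was tested on simulated data. No test between conditions was possible. Signals are printed for anchor factors, the 5 highest and 5 lowest per deprivation and those past 2-fold; other factors are given by differences, except EIF1AX, EIF2B1, EIF3L and EIF3M and the further probe sets shown, which were chosen after their values were seen. Members, role groups, lists and alternatives were chosen with earlier results of these data known. Settings tried were 2 other scalings, floors at the 20th and 60th percentile, log2(value + 32), either no filter on level or one at the 70th percentile, averaging the probe sets of a gene, and no shared or cross-hybridising probe sets. The number of arrays limits the precision.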

Additional observations from a re-analysis of the deposited data

How the results depend on the processing

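No paired analysis was possible because each condition has 1 array. With each array centred on its median the factor medians were -0.15 after leucine and -0.27 after lysine removal and 0.15 between the deprivations, those of non-TOP factors -0.18, -0.31 and 0.13, and those after lysine removal -0.13 (start codon), -0.24 (eIF3) and -0.34 (cap binding); 4, 12 and 5 factors then passed 1.5-fold and, after lysine removal, 2 passed 2-fold. This scaling moved all genes by a like amount. With probe sets averaged per gene, 5 factors passed 1.5-fold and 2 passed 2-fold after leucine removal, and the cap-binding median was 0.12. Without shared or cross-hybridising probe sets 37 genes were measured; 6 passed 1.5-fold after leucine removal and 5 between the deprivations, 2 passed 2-fold after leucine and 2 after lysine removal, and the elongation median between the deprivations was -0.05 over 4 genes. With the filter at the 70th percentile 1 factor passed 1.5-fold after leucine removal, and 0 factors passed 2-fold between the deprivations under that filter, as under a floor raised to the 60th percentile. The other 273 of 297 values of medians and counts stayed within 1.5 times (counts) or within the error of a median. A sign change inside that error was counted as no change, as for the TOP median after leucine removal (0.10, and -0.03 with median centring). That error came from the SD between probe sets over all genes. This SD was 0.49 after leucine removal, 0.57 after lysine removal and 0.58 between the deprivations. The SDs over factor genes are smaller (0.37 and 0.39), and the values were not compared by those. No protein-coding factor changed sign in a comparison where it was past 1.5-fold, in the settings that measured it. EIF5A has no value without marked probe sets, and EIF3C and EIF5A2 have none under the filter at the 70th percentile. EIF3J-DT was not checked. Signal over background limits EEF1A2, EIF3C and EIF5A2.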

Other observations

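Probe sets of the same factor could differ by more than the deprivations did. For EEF1D the bright probe sets gave -0.20 and -0.02 after leucine removal, while the dim ones gave -0.77 and -1.89, the last with the deprived array at the floor. For EIF3K the bright probe sets lay between -0.09 and 0.02, and a dim one at -0.98. Of 28 factors with several kept probe sets, 15 had all of them on 1 side of complete medium after leucine removal (9 above, 6 below) and 14 after lysine removal (8 above, 6 below). Among the 16 with at least 3 kept probe sets, 3 were all above and 3 all below after leucine removal. After lysine removal 3 were all above and 2 all below. The same share over all genes was not counted, so these counts cannot be read as particular to the factors.

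EIF3J and the transcript EIF3J-DT, which starts beside it, leaned the same way: EIF3J gave -0.05 and -0.30 after leucine and 0.16 and 0.31 after lysine removal over its 2 probe sets, and EIF3J-DT read 246, 187 and 351 (-0.40 and 0.51) on 1 dim probe set. Whether the direction is shared beyond these 3 probe sets was not tested.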
